A study of Mus musculus with 9 samples.

Results

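The S100 genes described here encode small calcium-binding proteins of the EF-hand type, several of which leave stressed or damaged cells and act as alarmins. A list of 10 such genes was taken as given (S100a1, S100a3, S100a4, S100a6, S100a8, S100a9, S100a10, S100a11, S100a14 and S100a16), and every probe set assigned to exactly 1 of them was kept. These were 13 of 45037 probe sets, and they represent 9 of 18193 genes. S100a11 has no probe set of its own on the array and is left out of all counts.

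The study compared epidermis of hairless adult mice with and without inactivation of Alox12b, the epidermal 12R-lipoxygenase that oxidises linoleate in barrier ceramides. The Alox12b fl/fl Cre group (p/p +/cre, labelled diseased, 5 mice, called fl/fl Cre below) carried 2 floxed Alox12b alleles and a tamoxifen-dependent Cre-ERT2 recombinase under the keratin 14 promoter, which is active in basal keratinocytes. The Alox12b fl/fl group (p/p +/+, labelled control, 4 mice, called fl/fl below) consisted of littermates with the same floxed alleles and no Cre. All mice had been backcrossed to SKH1 for 5 generations, received 3 intraperitoneal injections of 1 mg tamoxifen in sunflower seed oil at 8 weeks of age, and were sampled 6 days after treatment. The presence of Cre and the loss of Alox12b cannot be told apart, since no fl/fl mouse carried Cre.

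S100 proteins work mostly as dimers that change shape when calcium enters the cell and then bind target proteins such as annexins. S100a8 and S100a9 form the heterodimer calprotectin, which holds zinc and manganese away from microbes and, once released, engages receptors such as Tlr4 and the receptor for advanced glycation end products (Ager). Neutrophils and monocytes carry much of it, and keratinocytes make it in wounded or inflamed epidermis. Most S100 genes of the mouse lie together on chromosome 3, next to the genes of the cornified envelope.

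Epidermal sheets were removed from frozen skin by scratching. Each mouse, labelled a biological replicate, was measured on 1 Affymetrix 3' expression array, and the median probe set of an array read 4.34 to 4.42 on the log2 scale of the deposited values. Precision is limited by how few arrays there are. On the first principal component fl/fl Cre replicate 5 lay nearer the fl/fl arrays than the other fl/fl Cre arrays did (-25.3, against -55.8 to -44.9 for fl/fl Cre replicates 1 to 4 and 48.6 to 63.0 for fl/fl arrays). The single Alox12b probe set read 9.89 ± 0.29 (SD, n = 5) in fl/fl Cre and 9.28 ± 0.10 (SD, n = 4) in fl/fl epidermis, higher by 0.61 ± 0.14 (SE; limma adjusted p = 0.00694). Whether it lies within the deleted sequence is not given in the sources used here, so it checks nothing about the deletion. Keratinocyte markers were bright on all arrays, with a summed level (log2 of the sum of unlogged values over 9 genes) of 15.49 to 15.60 in fl/fl Cre and 15.52 to 15.59 in fl/fl arrays. Of these genes, Krt14 was higher in fl/fl Cre by 0.47 ± 0.06 (SE; limma adjusted p = 0.000445). Trp63 and Dsc3 were lower by 0.35 ± 0.09 and 0.25 ± 0.07, and 6 did not pass at adjusted p below 0.05. Among all genes, 15.5% were higher and 18.9% lower.

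The comparison asked which S100 transcripts differed 6 days after Alox12b inactivation. S100a9 and S100a8 rose 23.2-fold and 10.5-fold in fl/fl Cre epidermis, S100a16 and S100a6 rose by less than 2-fold, S100a4 fell close to 2-fold and S100a10 fell slightly. S100a1, S100a3 and S100a14 did not pass the test. Of the 13 probe sets, 5 were higher, 3 lower and 5 not passing (limma, adjusted p below 0.05 over all probe sets). Among all 45037 probe sets, the share called higher was 12.7% and the share called lower 16%, so that 28.6% were called in either direction. By gene, 4 of 9 were higher and 2 lower, against 15.5% and 18.9% of all genes. The groups did not overlap in 8 of the 13 probe sets, against 25.7% of all probe sets. The median absolute difference was 0.36 on the log2 scale for the 13 probe sets and 0.18 for all probe sets, and only S100a9 and S100a8 differed by at least 2-fold.

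**Figure D1:**
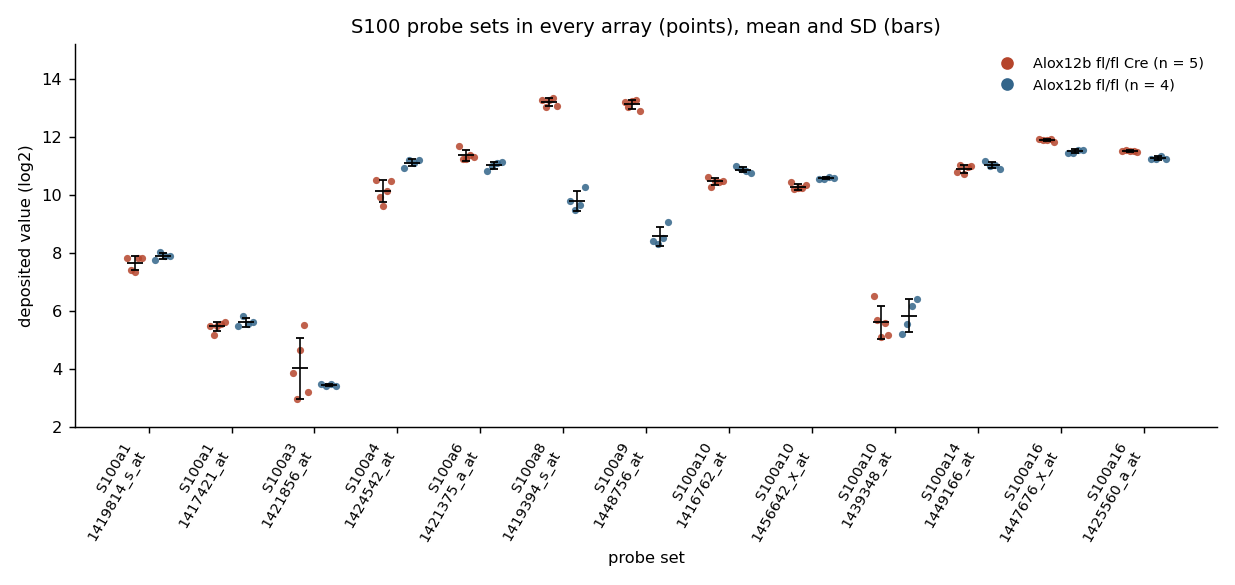
Deposited log2 values (vertical axis) of the 13 S100 probe sets (horizontal axis) on every array, with fl/fl Cre arrays in red and fl/fl arrays in blue; black bars give the mean and SD. S100a8 and S100a9 lie above 12.8 on all fl/fl Cre arrays and below 10.3 on all fl/fl arrays, while the groups overlap for S100a1, S100a3, S100a14 and 1 probe set of S100a10.

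S100a9, the larger subunit of calprotectin, showed the largest difference of the family. It read 13.21, 13.01, 13.24, 13.26 and 12.88 in fl/fl Cre replicates 1 to 5, against 8.43, 8.32, 8.52 and 9.06 in fl/fl replicates 1 to 4. The lowest fl/fl Cre array lay 3.81 above the highest fl/fl array. The difference was 4.54 ± 0.15 (SE; limma adjusted p = 7.15e-08), rank 10 of 18193 genes by size of rise.

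S100a8, its partner, read 13.27, 13.03, 13.28, 13.33 and 13.05 in fl/fl Cre replicates 1 to 5, against 9.80, 9.47, 9.64 and 10.27 in fl/fl replicates 1 to 4. Here too no array of either group reached the other, with a gap of 2.76. The difference was 3.40 ± 0.15 (SE; limma adjusted p = 4.98e-07), rank 37 of 18193 genes by rise. The S100a8 probe set is of a type (_s_at) that can match several transcripts.

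The 2 subunits varied together among mice. In fl/fl Cre epidermis both were lowest in replicates 2 and 5, and in fl/fl epidermis both were highest in replicate 4 and lowest in replicate 2. Both varied less among fl/fl Cre than among fl/fl mice, with an SD of 0.14 (n = 5) against 0.34 (n = 4) for S100a8 and of 0.17 (n = 5) against 0.33 (n = 4) for S100a9. Both probe sets lay close to the top of the scale in fl/fl Cre arrays, 0.34 (S100a8) and 0.41 (S100a9) below the highest value of any fl/fl Cre array. Whether the signal saturates there, which would understate the folds and narrow the spread, was not tested. Without fl/fl Cre replicate 5 the differences were 4.60 for S100a9 and 3.43 for S100a8.

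Since both proteins act as 1 complex, their changes were compared within arrays. The rise of S100a9 exceeded that of S100a8 by 1.14 ± 0.06 on the log2 scale (SE, n = 5 and 4; two-sided exact permutation p = 0.00794, adjusted p = 0.0159 over 2 pairs), and 0.00794 is the smallest p these 9 arrays can give. The S100a8 signal was the one closer to the ceiling, and the part of the ceiling in this difference was not tested. Leaving out any 1 array kept the difference between 1.09 and 1.17, but without fl/fl Cre replicate 2, 3, 4 or 5 the adjusted p was 0.0571, and with sex as a covariate it was 0.05; fewer splits of the arrays are possible in these settings.

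The RefSeq promoter windows of both genes (build GRCm38.p6, 250 bases before the start, 5′ to 3′) are shown because these 2 neighbours rose together. Capitals mark matches to the C/EBP motif TTNNGNAA, searched on both strands, a factor family with a known role in myeloid S100a8 and S100a9 expression. S100a8 lies on the plus strand and its window is chr3:90668821-90669070, and S100a9 lies on the minus strand with its window at chr3:90695722-90695971.
S100a8: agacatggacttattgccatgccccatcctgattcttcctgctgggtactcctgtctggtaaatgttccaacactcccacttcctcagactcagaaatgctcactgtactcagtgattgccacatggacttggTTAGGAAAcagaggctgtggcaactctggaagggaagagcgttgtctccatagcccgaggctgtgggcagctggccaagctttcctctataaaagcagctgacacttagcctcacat
S100a9: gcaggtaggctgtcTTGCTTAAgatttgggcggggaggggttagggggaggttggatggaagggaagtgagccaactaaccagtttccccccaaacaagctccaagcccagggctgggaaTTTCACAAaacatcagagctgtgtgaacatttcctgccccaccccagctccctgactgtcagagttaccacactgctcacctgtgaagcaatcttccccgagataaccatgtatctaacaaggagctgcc
The S100a8 window holds 1 match, TTAGGAAA, starting 117 bases before the start site. The S100a9 window holds 2 matches, TTGCTTAA and TTTCACAA, at 236 and 130 bases before it. Of all 32851 promoter windows of this length, 36.8% hold such a match. No match to AP-1 (TGANTCA), NF-kB (GGANNTTCC) or STAT (TTCNNNGAA) was found in either window; these letters occur in 6.75%, 3.59% and 7.02% of all windows. The motifs do not overlap one another in these windows.

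Calprotectin is abundant in neutrophils, so a list of 14 neutrophil markers was set beside it. Of the 11 measured, 4 rose, 1 fell and 6 did not pass, with a median difference of 0.20, against 0.03 over all genes. The shares over all genes were 15.5% higher and 18.9% lower. Stfa2l1, a stefin-type cysteine protease inhibitor, rose by 4.29 ± 0.28 (adjusted p = 4.77e-06). Mmp8, the neutrophil collagenase, rose by 1.46 ± 0.30 (adjusted p = 0.00434), the lactoferrin gene Ltf by 0.57 ± 0.17 and the chemokine receptor Cxcr2 by 0.34 ± 0.11. Mpo, the myeloperoxidase of neutrophil granules, fell by 1.41 ± 0.34 (adjusted p = 0.00974). The higher count was 2 without fl/fl replicate 2, 3 or 4. It was also 2 with probe sets below the median removed, and at a threshold of 0.01. Mmp8 and Ltf were dim, with fl/fl means above 30.7% and 32.4% of all probe sets.

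The summed level of the 11 markers was 11.35 to 11.80 on fl/fl Cre arrays, against 8.28 to 8.81 on fl/fl arrays. Stfa2l1 carried nearly all of that difference. Without it, an alternative added after the data were seen, the other 10 summed to 7.70 to 7.92 on fl/fl Cre arrays, against 7.56 to 8.01 on fl/fl arrays (two-sided exact permutation p = 0.873), a sum that includes both the lower Mpo and the higher Mmp8, Ltf and Cxcr2. The 6 markers that did not pass (Elane, Ngp, Camp, Prtn3, Csf3r and Padi4) differed by -0.03 to 0.33. The median over the 11 markers, set against each marker's fl/fl mean, was 0.16 to 0.35 on fl/fl Cre arrays, against -0.04 to 0.02 on fl/fl arrays, with no overlap. No marker is listed at 0, and 6 of the 11 had means below the median probe set. The part of neutrophils in the S100a8 and S100a9 differences was not tested.

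**Figure D2:**
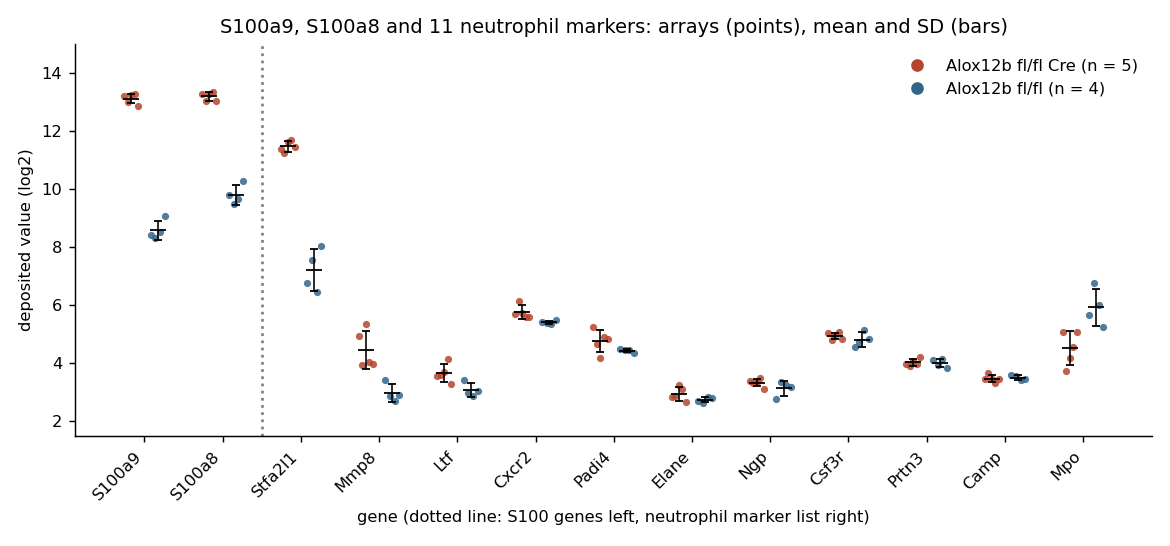
Deposited log2 values (vertical axis) of S100a9, S100a8 and the 11 measured neutrophil markers (horizontal axis, ordered by difference), with fl/fl Cre arrays in red and fl/fl arrays in blue and mean ± SD in black. Stfa2l1 is the marker with a separation like that of the S100 pair, and Mpo is lower in fl/fl Cre arrays.

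Markers of monocytes and macrophages fell more often than they rose. Of 11 measured monocyte and macrophage markers, 1 was higher (Fcgr1, 0.35 ± 0.09, lost without fl/fl replicate 2), 5 were lower and 5 did not pass. Among all genes, 15.5% were higher and 18.9% lower. Their summed level was 11.88 to 12.70 on fl/fl Cre arrays, against 12.76 to 13.10 on fl/fl arrays (two-sided exact permutation p = 0.0238). Adgre1, a surface antigen of mouse macrophages, fell by 0.94 ± 0.16 and the growth factor receptor Csf1r by 0.82 ± 0.14.

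The genes whose profile over the 9 arrays was most like that of S100a9 were searched among all genes outside the list, by the root mean square difference of values centred on each gene's fl/fl mean. The nearest was Sprr2d, a small proline-rich protein of the cornified envelope, at 0.23, with 13.10 ± 0.18 (SD, n = 5) in fl/fl Cre and 8.83 ± 0.31 (SD, n = 4) in fl/fl epidermis. It was followed by Cemip (0.39), which takes part in hyaluronan breakdown, the helix-loop-helix factor Tcf23 (0.41), Stfa2l1 (0.41) and the beta-defensin Defb4 (0.42). S100a8 itself stood at 0.85 by this measure, which counts the size of the change as well as its shape.

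S100a4, known as fibroblast-specific protein and also made by macrophages, T cells and Langerhans cells, was the member with the largest fall. It read 10.52, 9.92, 9.61, 10.13 and 10.47 in fl/fl Cre replicates 1 to 5, against 10.93, 11.20, 11.11 and 11.21 in fl/fl replicates 1 to 4. All fl/fl Cre arrays were below all fl/fl arrays, by at least 0.42. The difference was -0.98 ± 0.17 (SE; limma adjusted p = 0.0019), or 1.98-fold lower, and it lay between -1.08 and -0.85 when single arrays were left out. Its spread was wider in fl/fl Cre mice (SD 0.38, n = 5) than in fl/fl mice (SD 0.13, n = 4).

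Markers of the cell types that make S100a4 moved with it, where 18.9% of all genes were lower and 15.5% higher. Of 11 fibroblast markers 10 fell and 1 rose, with a summed level of 13.22 to 13.95 on fl/fl Cre arrays, against 14.19 to 14.73 on fl/fl arrays (two-sided exact permutation p = 0.00794). Postn, a matrix protein of the dermis, fell by 1.94 ± 0.25, and the collagen gene Col1a2 by 1.30 ± 0.21, while Fbln1 rose by 0.40 ± 0.13, a call lost without fl/fl Cre replicate 3, 4 or 5 or fl/fl replicate 2, 3 or 4. Of 6 T cell markers 5 fell, with a summed level of 8.64 to 9.17 on fl/fl Cre arrays, against 9.98 to 10.40 on fl/fl arrays (two-sided exact permutation p = 0.00794). Cd3g, a chain of the T cell receptor complex, fell by 2.50 ± 0.17.

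Of 7 Langerhans cell markers 4 fell, where 18.9% of all genes were lower. Their summed level was 12.54 to 13.20 on fl/fl Cre arrays, against 13.13 to 13.36 on fl/fl arrays (two-sided exact permutation p = 0.0476). Cd207, which encodes langerin, fell by 0.98 ± 0.24. The lower count was 1 without fl/fl Cre replicate 2, 3 or 4 or fl/fl replicate 2, 3 or 4, and 2 without fl/fl replicate 1. S100a4, the fibroblast sum and the T cell sum shared their 2 lowest arrays, fl/fl Cre replicates 2 and 3. The macrophage and Langerhans cell sums did not share both. The macrophage sum was lowest on fl/fl Cre replicates 2 and 5 (11.88 and 12.21). The Langerhans cell sum was lowest on fl/fl Cre replicates 3 and 4 (12.54 and 12.69). Among fl/fl arrays, replicate 1 was lowest for S100a4 and for the fibroblast, T cell, macrophage and Langerhans cell sums. The part of these cell types in the S100a4 difference was not tested, and in whole epidermal sheets fewer cells of a type and less RNA per cell cannot be told apart. The fibroblast marker Col1a2 averaged 12.88 on fl/fl arrays, above 99.9% of probe sets. Whether the amount of dermis that came off with the sheets differed between the groups was not tested.

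**Figure D3:**
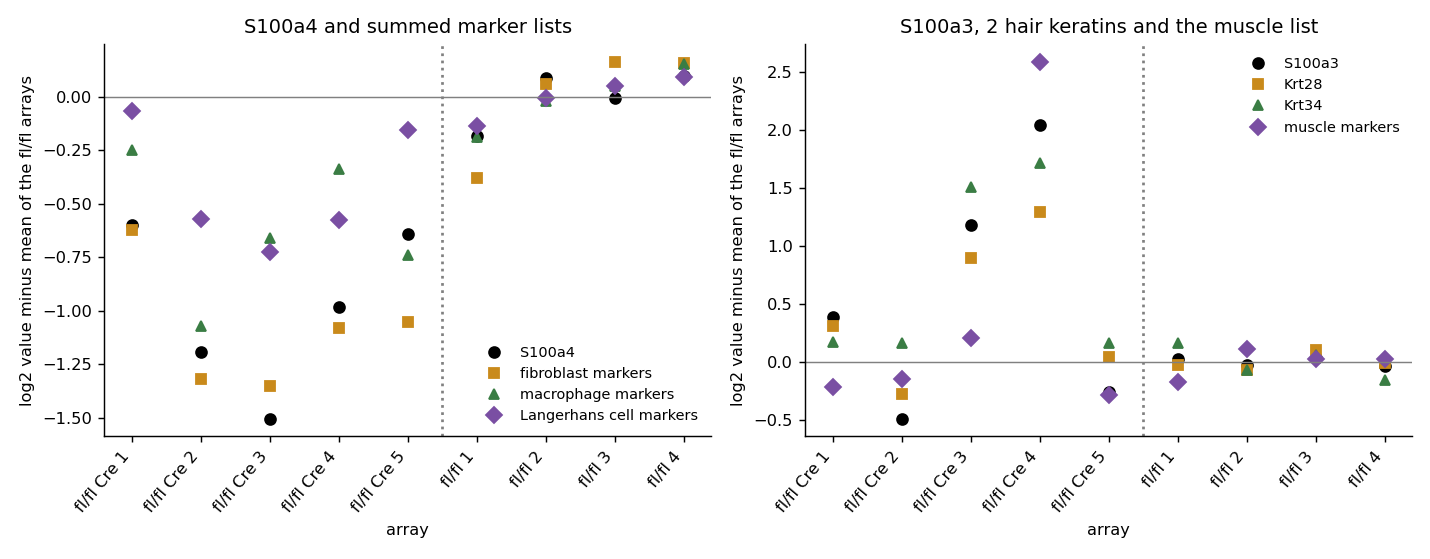
Log2 values minus the mean of the fl/fl arrays (vertical axes) for each array (horizontal axes, fl/fl Cre left of the dotted line). On the left are S100a4 and the summed levels of fibroblast, macrophage and Langerhans cell markers. On the right are S100a3, the hair follicle keratins Krt28 and Krt34 and the summed muscle markers. S100a4 is lowest on fl/fl Cre replicates 2 and 3, and S100a3 is highest on fl/fl Cre replicates 3 and 4.

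The promoter window of S100a4 is shown because it is the member with the largest fall. It lies on the plus strand at chr3:90603520-90603769 (GRCm38.p6, 250 bases before the start, 5′ to 3′) and holds no match to any of the 4 motifs. Among the other members, S100a6, which rose, and S100a1, which did not pass, also had none, while the 4 windows of S100a3, which did not pass, held 2 C/EBP matches and 1 NF-kB match. S100a16 had 1 AP-1 match in its windows, and the window of S100a11 had 2. No window was available for S100a10 and S100a14.
S100a4: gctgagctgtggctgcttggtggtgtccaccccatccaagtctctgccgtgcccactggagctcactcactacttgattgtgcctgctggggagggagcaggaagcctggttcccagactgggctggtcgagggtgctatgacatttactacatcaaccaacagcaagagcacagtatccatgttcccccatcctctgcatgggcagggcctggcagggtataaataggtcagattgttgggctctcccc

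S100a10 (p11) binds annexin A2 in a heterotetramer at the plasma membrane and has 3 probe sets. The brightest, 1416762_at, read 10.62, 10.29, 10.48, 10.46 and 10.49 in fl/fl Cre replicates 1 to 5, against 11.01, 10.89, 10.84 and 10.77 in fl/fl replicates 1 to 4. The difference was -0.41 ± 0.08 (SE; limma adjusted p = 0.00387), with a gap of 0.15 between the groups. A further probe set, 1456642_x_at, fell by 0.29 ± 0.07 (adjusted p = 0.0119), a call lost with replicate number as a block (-0.31, adjusted p = 0.0502) and at a threshold of 0.01. The third and dimmest, 1439348_at, read 5.11 to 6.53 in fl/fl Cre and 5.20 to 6.44 in fl/fl arrays and did not pass (-0.23 ± 0.32, adjusted p = 0.625). With the mean of all 3 probe sets the S100a10 difference was -0.31 and did not pass (adjusted p = 0.0799).

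Anxa2, its binding partner, fell by 0.27 ± 0.08 (adjusted p = 0.0244) on its brightest probe set, and its 2 other probe sets did not pass. The change of S100a10 was 0.14 lower than that of Anxa2 (-0.14 ± 0.05, SE, n = 5 and 4; two-sided exact permutation p = 0.0476, adjusted p = 0.0476 over 2 pairs). That call was lost under most alternatives run, for example with cyclic loess normalisation (-0.12, adjusted p = 0.0794) and with the mean of all probe sets (-0.18, adjusted p = 0.310). With probe sets that can match several transcripts removed it was -0.42 and passed (adjusted p = 0.0159), there against an Anxa2 probe set that read 1.83 in fl/fl Cre and 1.82 in fl/fl epidermis, near the bottom of the scale.

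Annexins and other proteins that bind S100 proteins fell more often than they rose, with 8 of 13 lower, 2 higher and 3 not passing. The list's median difference was -0.31, against 0.03 over all genes, of which 18.9% were lower and 15.5% higher. Anxa6 fell by 0.97 ± 0.12, Anxa8 by 0.67 ± 0.09, Anxa4 by 0.62 ± 0.06 and the scaffold protein Iqgap1 by 0.69 ± 0.11. Anxa3 rose by 1.27 ± 0.17 (2.41-fold), and Cacybp, the calcyclin-binding protein that S100a6 binds, rose by 0.32 ± 0.10. The higher count was 1 without fl/fl Cre replicate 2, 4 or 5 or any 1 of the fl/fl arrays. Anxa1, a partner of S100a11, read 12.51 ± 0.05 (SD, n = 5) in fl/fl Cre and 12.54 ± 0.06 (SD, n = 4) in fl/fl epidermis on its brightest probe set (adjusted p = 0.766), while a dimmer one rose by 0.95 ± 0.30 (adjusted p = 0.0362).

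**Figure D4:**
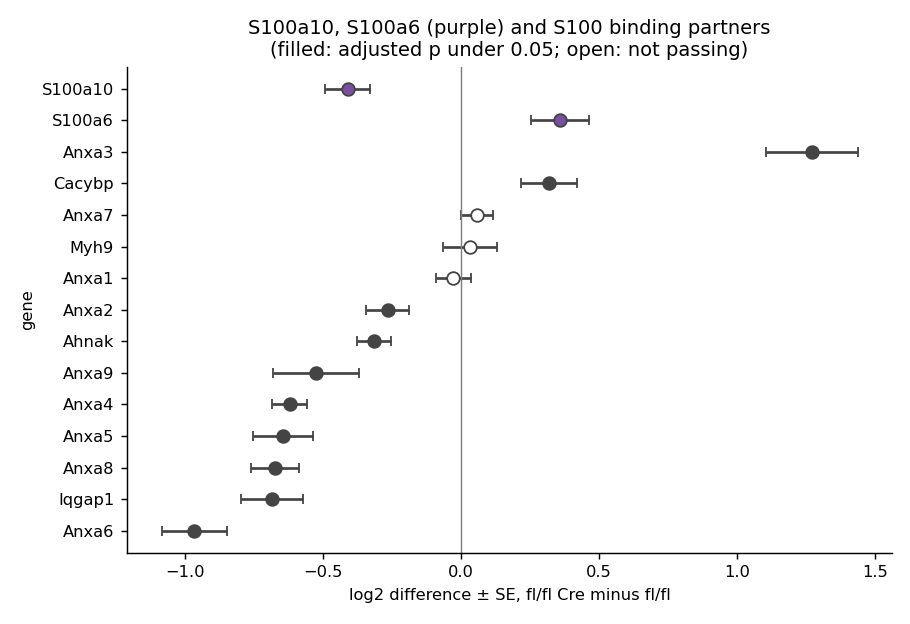
Log2 differences, fl/fl Cre minus fl/fl, with limma SE (horizontal axis) for S100a10, S100a6 and the 13 measured binding partners (vertical axis); filled points passed at adjusted p below 0.05. Of the partners that passed, Anxa3 and Cacybp lie to the right of 0, as does S100a6, and 8 lie to the left, as does S100a10.

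S100a16 and S100a6 rose modestly. S100a16, a broadly expressed member of the family, read 11.93, 11.91, 11.88, 11.94 and 11.81 in fl/fl Cre replicates 1 to 5 on probe set 1447676_x_at, against 11.46, 11.46, 11.56 and 11.56 in fl/fl replicates 1 to 4. The groups were 0.25 apart, and the difference was 0.39 ± 0.06 (SE; limma adjusted p = 0.00122), a 1.31-fold rise. The other probe set, 1425560_a_at, rose by 0.24 ± 0.06 (adjusted p = 0.0119). That call was lost with quantile normalisation (0.14, adjusted p = 0.104), with replicate number as a block (0.25, adjusted p = 0.0631) and at a threshold of 0.01.

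S100a6 (calcyclin), which is induced when cells enter the cycle, read 11.69, 11.22, 11.26, 11.38 and 11.32 in fl/fl Cre replicates 1 to 5, against 10.84, 11.00, 11.10 and 11.13 in fl/fl replicates 1 to 4. The groups stood only 0.10 apart. The difference was 0.36 ± 0.11 (SE; limma adjusted p = 0.0277), a 1.28-fold rise. It no longer passed with quantile normalisation (0.26, adjusted p = 0.0977), with replicate number as a block (0.37, adjusted p = 0.0892) or at a threshold of 0.01. Nor did it pass without fl/fl Cre replicate 4 (0.36, adjusted p = 0.0522), fl/fl replicate 1 (0.30, adjusted p = 0.0779) or fl/fl replicate 2 (0.35, adjusted p = 0.0663).

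S100a3, a calcium- and zinc-binding protein of the hair cuticle, was uneven among fl/fl Cre mice. It read 3.86, 2.98, 4.65, 5.51 and 3.20 in fl/fl Cre replicates 1 to 5, against 3.49, 3.44, 3.51 and 3.43 in fl/fl replicates 1 to 4. Replicates 1, 3 and 4 lay above every fl/fl array and replicates 2 and 5 below every one. The signal was dim, since the mean of the fl/fl Cre arrays exceeded 45.6% of all probe sets and that of the fl/fl arrays 38.1%. The SD was 1.05 (n = 5) in fl/fl Cre and 0.04 (n = 4) in fl/fl mice, a ratio of 27.3, and the difference of 0.57 ± 0.44 did not pass (adjusted p = 0.354). It was 0.21 without fl/fl Cre replicate 4.

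By the same measure of likeness, applied to S100a3 after its values were seen, the nearest genes were the hair follicle keratins Krt28 (0.30) and Krt34 (0.32), Smpx (0.34), Gm11563 (0.34) and the keratin-associated protein gene Krtap13-1 (0.36). All of them were dim, with fl/fl means above 3.03% (Smpx) to 28.5% (Krtap13-1) of probe sets. None passed (limma adjusted p = 0.109 to 0.234). Krt34 read 2.84, 2.83, 4.17, 4.38 and 2.83 in fl/fl Cre replicates 1 to 5, against 2.51 to 2.83 in fl/fl arrays. It was thus highest on the same 2 arrays as S100a3. Smpx is a muscle protein, and the summed level of 9 muscle markers was 10.37 on fl/fl Cre replicate 4, against 7.50 to 7.99 on the other fl/fl Cre arrays and 7.61 to 7.90 on fl/fl arrays. The part of follicle or muscle tissue in the S100a3 values was not tested.

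S100a1, best known from heart and skeletal muscle, and S100a14, an epithelial member of the family, did not pass. S100a1 read 7.35 to 7.85 in fl/fl Cre and 7.77 to 8.05 in fl/fl arrays on its brighter probe set (-0.25 ± 0.12, adjusted p = 0.154). Its other probe set differed by -0.14 ± 0.10. S100a14 read 10.72 to 11.04 in fl/fl Cre and 10.91 to 11.16 in fl/fl arrays (-0.13 ± 0.09, adjusted p = 0.295). For both genes the groups overlapped.

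Outside the list, 5 further S100 family genes (S100a5, S100a7l2, S100a13, S100b and S100g) and the gene of an S100-binding protein, S100pbp, were measured. Of these 6, none rose, S100a13 and S100pbp fell and 4 did not pass, where 15.5% of all genes were higher and 18.9% lower. Without fl/fl Cre replicate 3, 1 of the 6 was higher. S100a13, which takes part in the release of proteins that lack a signal peptide, fell by 0.56 ± 0.11 (adjusted p = 0.00286), and S100pbp by 0.54 ± 0.12 (adjusted p = 0.00556). In gene order along chromosome 3 (RefSeq, GRCm38.p6) neighbours often moved in different ways. S100a4 (lower) and S100a6 (higher) are separated by S100a5, and S100a16 (higher) is next to S100a14 (not passing) and close to S100a13 (lower). S100a8 and S100a9 are adjacent, with no protein-coding gene between them, and S100a10 lies beyond 54 protein-coding genes that separate S100a11 from the rest of the S100 genes.

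**Figure D5:**
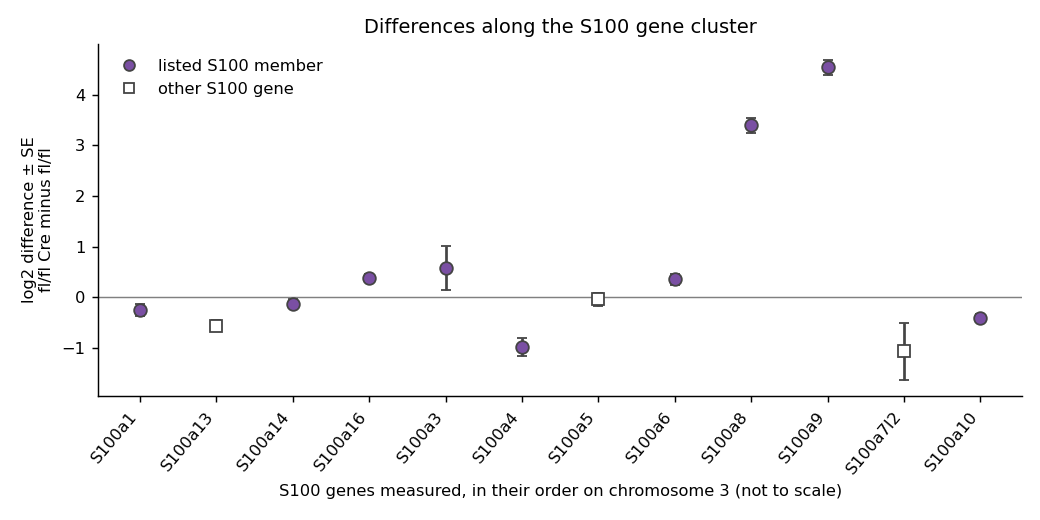
Log2 differences, fl/fl Cre minus fl/fl, with limma SE (vertical axis) for the S100 genes with a probe set of their own, in their order on chromosome 3 (horizontal axis, not to scale); filled circles are members of the list and open squares other S100 genes. The adjacent S100a8 and S100a9 stand at 3.40 and 4.54, and the other members lie between -0.98 and 0.57.

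Receptors for S100 proteins and their adaptors were called about as often as all genes: 3 of the 11 rose, 1 fell, and the remaining 7 did not pass, where 15.5% of all genes were higher and 18.9% lower. The adaptor Myd88, through which Tlr4 signals, rose by 0.71 ± 0.10 (adjusted p = 0.000464), Ly96, the Tlr4 co-receptor MD-2, by 0.31 ± 0.09 and Bsg, a receptor for S100a9, by 0.22 ± 0.07. Nptn, a receptor described for S100a8, fell by 0.52 ± 0.08 (adjusted p = 0.000934). Tlr4 and Ager, singled out after their values were seen, differed by 0.01 ± 0.18 and 0.07 ± 0.14 and did not pass; Tlr4 read the same value, 5.07, on all 4 fl/fl arrays. The higher count was 1 without fl/fl Cre replicate 5, fl/fl replicate 3 or fl/fl replicate 4.

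Of 15 measured C/EBP factors, cytokines and receptors known to drive S100a8 and S100a9 in keratinocytes or myeloid cells, 6 rose, 1 fell and 8 did not pass. Over all genes, 15.5% were higher and 18.9% lower. Il17f and Il22, also listed, were not measured. The cytokines Il1a and Il1b rose by 1.77 ± 0.16 (3.42-fold) and 1.37 ± 0.22 (2.59-fold), Nfkbiz, a cofactor of the interleukin 17 response, by 0.97 ± 0.15 and the differentiation factor Klf4 by 0.43 ± 0.10. Il17rc, a chain of the interleukin 17 receptor, fell by 0.39 ± 0.07, and the lower count was 2 without fl/fl Cre replicate 1 or 2. Cebpb and Il17a, named after their values were seen, rose by 0.40 ± 0.09 (adjusted p = 0.00664) and by 1.00 ± 0.32 (adjusted p = 0.0376). Il17a read 6.19 on fl/fl Cre replicate 1, 4.34 to 5.01 on the other fl/fl Cre arrays and 3.84 to 4.05 on fl/fl arrays. Its signal was dim, with a fl/fl mean above 44.2% of all probe sets.

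Sex is not labelled. From Xist and Y-linked genes, 3 fl/fl Cre mice were read as female and 2 as male, against 1 female and 3 males among fl/fl mice. Within males the differences were 4.48 for S100a9, 3.36 for S100a8 and -0.96 for S100a4, and within females, with 1 fl/fl mouse, they were 4.69, 3.42 and -0.86 for the same genes. S100a3 differed by -0.04 within males and 0.96 within females, and no member's difference between sexes passed (lowest adjusted p = 0.911).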

How the data were processed

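Biotin-labelled cRNA from epidermal RNA of 9 mice was hybridised to Mouse Genome U430 2.0 arrays, 1 per mouse, per the labels' protocols. The authors deposited 1 table of log2 values for 45037 probe sets. Per the submitters' processing notes the tool affy was used, with no version stated. How background was corrected and how probes were normalised and summarised stays unstated here, as does the log base. The highest value per array, 13.47 to 13.53, is above what natural logarithms of scanner values can reach, so the values were read as log2. They were used as deposited, without a filter.

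In the platform annotation 34945 probe sets have a single symbol, 932 have more, and 9160 are unnamed. For a gene with more than 1 probe set, the brightest on average over the 9 arrays was used. Groups were compared with limma 3.58.1 in R 4.3.3 (lmFit and eBayes, two-sided, no covariates, 7 residual degrees of freedom), with Benjamini-Hochberg adjustment over all probe sets and a threshold of 0.05. The steps were tested on simulated arrays. Single values were compared by exact permutation of arrays. The planned pair of S100a11 and Anxa1 was not run, since S100a11 has no probe set of its own, which left 2 pairs. The members, gene lists and tests were chosen with earlier results of these data known. Named genes are all members, from each list the passing genes lowest in adjusted p (at most 5) and any passing against most, the partner genes, and the 5 genes most like S100a9; others are said to be outside this rule, and melanocyte and keratinocyte markers are given once. Alternatives covered normalisation, dim probe sets, moderation, array weights, replicate number, sex, probe set choice, threshold and single arrays left out.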

Additional observations from a re-analysis of the deposited data

Results flagged for a closer look

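Among 172 groups of 4 or 5 arrays checked for a single array far from the others, 10 had one, and chance alone flags about 1 in 20, or 8.6. Of the 26 groups of S100 values, 1 was among them: on the dimmer S100a16 probe set, fl/fl replicate 3 read 11.36, with the nearest fl/fl array at 11.25, a gap of 0.986 of the group's range. The summed muscle markers were 10.37 on fl/fl Cre replicate 4, with the nearest at 7.99 (0.829 of the range).

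The other 8 were single genes of the context lists. On fl/fl replicate 1, Il17rc (0.882), Thy1 (0.871), Lum (0.836) and Dpt (0.833) were low. On fl/fl Cre replicate 1, Col1a2 was high (0.739) and Dsc3 low (0.73). Cxcr2 was high on fl/fl Cre replicate 2 (0.72) and Cd3g on fl/fl Cre replicate 5 (0.756).

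One probe set outside the comparison, 1460351_at, matches S100a11, its pseudogene S100a11-ps and Gm12854. It read 12.22 ± 0.10 (SD, n = 5) in fl/fl Cre and 11.98 ± 0.04 (SD, n = 4) in fl/fl epidermis, a rise of 0.247 ± 0.070 (SE; limma adjusted p = 0.0227) with no overlap of the groups, and it cannot be assigned to 1 of the 3 genes.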

How the results depend on the processing

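S100a8, S100a9, S100a4 and S100a16 (1447676_x_at) kept their direction and passed under every alternative run that retained their probe set; S100a9 ranged from 4.45 to 4.70 and S100a4 from -1.08 to -0.85. The number of higher probe sets was 3 with quantile normalisation, with the replicate block and at a threshold of 0.01, and 1 when probe sets that can match several transcripts were removed, which also left 1 higher gene because S100a6, S100a8 and S100a16 then had none. With the mean of all probe sets 1 gene was lower. The S100a10 probe set 1439348_at, never called, turned to 0.066 with sex as a covariate (adjusted p = 0.857). The excess of S100a9 over S100a8 was 1.16 with the replicate block (exact permutation, adjusted p = 0.25, where no p below 0.125 is possible) and 1.18 with sex as a covariate (exact permutation, adjusted p = 0.05), and 1.09 to 1.17 without single arrays, where leaving out 1 fl/fl Cre array allows no p below 0.0286. The S100a10 to Anxa2 difference did not pass with quantile normalisation (-0.14), cyclic loess (-0.12), the replicate block (-0.16), sex (-0.13) or the mean of all probe sets (-0.18), passed at -0.42 (adjusted p = 0.0159) with probe sets that can match several transcripts removed, and was -0.18 to -0.11 without single arrays. The deviations of same-numbered arrays had correlations of -0.27 to 0.08. No pairing by number was seen, but so few arrays cannot exclude one. The median difference of all probe sets was 0.03 as deposited and 0.01 to 0.07 under the other scalings. Values near the top of the array scale limit S100a8 and S100a9, and dim signal limits S100a3.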

Other observations

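Melanocyte markers, which include genes of cells that also express S100 proteins, were higher in fl/fl Cre epidermis in 6 of 6 genes, against 15.5% of all genes. Their median difference was 1.65. Their summed level was 7.55 to 9.10 on fl/fl Cre arrays, against 6.64 to 6.82 on fl/fl arrays (two-sided exact permutation p = 0.0159). Dct, a melanin synthesis enzyme, rose by 2.78 ± 0.40 and Mlana by 2.21 ± 0.38. S100b, the S100 gene best known from melanocytes and glia, was named after its values were seen. It read 3.99 ± 0.16 (SD, n = 5) in fl/fl Cre and 3.87 ± 0.15 (SD, n = 4) in fl/fl epidermis and did not pass (adjusted p = 0.400).

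S100a7l2, also named after its values were seen, read 2.32 to 3.25 on all fl/fl Cre arrays and 2.85, 6.18, 3.35 and 3.47 in fl/fl replicates 1 to 4, so that its difference of -1.07 ± 0.56 (adjusted p = 0.181) rests mainly on fl/fl replicate 2.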
